A study of Gallus gallus with 6 samples.

Results

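Promoter DMRs away from CpG islands are differentially methylated regions (DMRs) that the study annotated to a promoter, up to 2 kb upstream of a transcription start site, and to neither a CpG island nor its shore. They numbered 695 of the 7621 mCG DMRs between lens epithelial cells and lens fiber cells and 695 of the 1041 promoter DMRs, the other 346 lying at an island or shore. Membership rests on annotation, without regard to methylation level or direction. The DNA came from the lenses of White Leghorn chicks taken at embryonic day 13 and dissected into the epithelial layer and the fiber cells that differentiate from it, with 25 lenses pooled per replicate and 3 replicates per cell type. No genetic change or treatment distinguished the groups, and without expression data here the labelled cell types were not checked against marker transcripts. Whole genome bisulfite sequencing gives, at each cytosine followed by guanine (CG), the share of molecules read as methylated, the mCG level. The deposited table holds 1 mean level per DMR and cell type, averaged by the authors over replicates. Depth and replicate spread are therefore unknown, no difference between the cell types could be tested here, and every level is the authors' mean.

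Promoters within CpG islands, stretches dense in CG sites, are usually free of methylation across vertebrate tissues. Promoters with fewer CG sites are more often methylated, and their methylation differs more between tissues. Methyl groups are placed by DNMT enzymes and oxidized on the way to removal by TET enzymes. A methylated CG inside a recognition sequence can block the binding of some transcription factors, such as those of the MYC family that read CACGTG, while sequences without a CG cannot be methylated at such a site. Lens fiber cells elongate, fill with crystallins and lose their organelles.

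The sequences at stake are best seen at the sites the study matched to transcription factor motifs inside these DMRs. Sites were listed by the study for genes whose expression it found to differ between the cell types, and neither expression nor binding was analysed here. A match describes letters and is no evidence of a bound site. The list for DMRs that lost methylation in fiber cells covered genes the study called fiber cell preferred and was complete. Of the 695 DMRs, 95 lost methylation, and how many of these lay at such genes was not counted. Sites were placed in 11 of the 95 DMRs. These held 20 distinct sites, of which 5 contained a CG, counting overlapping CDK6 matches that share 1 CG. The motifs the study listed enter this count, and the share over its whole list was not computed. Shown are sites at 7 of the 11 genes, chosen to cover the MAF, SOX, MEF2 and NFAT motifs, written 5′ to 3′ with CG dinucleotides in capitals.
SPTBN1, MEF2A motif: gctaaaaatatc
SPTBN1, NFATC1 motif: tttttccacc
NFKBIA, MEF2A motif: tctaaaaatagc
HSF4, Sox2 motif: cctttgtc
NINJ2, MAFG motif: tagctgctgccacagcaaaga
BASP1, MAFG motif: ttactgcacattcagcaaagc
CDK6, MAFK motif: CGatgctaacacagcagat
MAP2K6, MAFG motif: attaCGcagaggcagCGggca
Positions are those of the study's list, on galGal6. The MEF2A match at SPTBN1, which encodes the cytoskeletal protein beta-spectrin, lies on the plus strand at chr3:2787378-2787389 and the NFATC1 match on the minus strand at chr3:2787485-2787494. At HSF4, which encodes a heat shock transcription factor needed for lens fiber maturation, the Sox2 match lies on the minus strand at chr11:2460321-2460328. The match at the cell cycle kinase gene CDK6 lies on the plus strand at chr2:22835646-22835664 and that at MAP2K6, a kinase that activates p38, on the plus strand at chr18:7977101-7977121. A site listed without a CG holds no whole CG among its letters. The bases next to each site were not examined, so a CG that straddles the end of a site would be missed. Whether the methylation measured fell within or beside the sites was therefore not determined. The levels of the 11 DMRs fell by between 16.1 percentage points at NFKBIA, an inhibitor of NF-kappaB (24.2% in epithelial cells, 8.11% in fiber cells), and 41.0 percentage points at SPTBN1 (84.3% and 43.3%).

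The study's list for DMRs that gained methylation was at hand only in part, so no count is drawn from it. It also held sites without a CG, such as an RREB1 match at HES5. Examples are shown only for motifs that read CACGTG or close relatives, since there the CG sits in the middle of the recognized letters. They are therefore not set against the sites in DMRs that lost methylation.
EYA4, MNT motif: agcaCGtgct
HEYL, MYC motif: agccaCGtgctg
IL11RA, HEY1 motif: gccaCGtgcc
STRA6, Arntl motif: tgtcaCGtgc
The EYA4 match lies on the plus strand at chr3:56635480-56635489, the HEYL match on the minus strand at chr23:5636960-5636971, the IL11RA match on the plus strand at chrZ:8336158-8336167 and the STRA6 match on the plus strand at chr10:3042123-3042132. EYA4, a transcriptional coactivator of the eyes absent family, rose from 31.7% to 61.9% in the DMR around its match. The DMR at HEYL, a transcriptional repressor downstream of Notch, went from 5.67% to 14.9%. The DMR at the receptor for interleukin 11 went from 26.4% to 52.4%, and that at STRA6, the cellular receptor for retinol binding protein, from 5.78% to 27.3%. The 4 DMRs thus ended at very different levels, from mostly unmethylated to mostly methylated, although each was a gain.

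Of the 695 DMRs, 600 had the higher mCG level in fiber cells (gains) and 95 the lower (losses). The share of gains was 86.3% (95% Wilson interval 83.6 to 88.7, which covers the counting of DMRs only), beside 86.6% of all 7621 DMRs. Losses made up 13.4% of all DMRs. Promoter DMRs at islands or shores held 301 gains among 346, or 87.0% (83.0 to 90.1). The share away from islands minus that at islands or shores was -0.663 percentage points (Newcombe interval -4.84 to 3.94), an interval that includes 0. The direction of change was thus close to the background of the whole table, at islands or shores and away from them.

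The levels themselves were those of partly methylated DNA. Epithelial cells had a median of 28.1% and fiber cells one of 43.5%, against 27.4% and 40.9% at island or shore promoters and 30.5% and 49.6% over all DMRs. The middle part of the epithelial levels, between the quartiles, ran from 14.0% to 45.9%. DMRs under 10% in epithelial cells numbered 104, or 15.0% of the members and 11.6% of all DMRs. Gains started from a median of 24.2% and reached 49.3%, while losses started from 48.3% and reached 19.1%. A level of at least 50% was counted in 144 of the 695 members in epithelial cells and in 292 in fiber cells. Over all 7621 DMRs the counts were 1848 and 3776, so the rise was shared by the whole table.

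**Figure D1:**
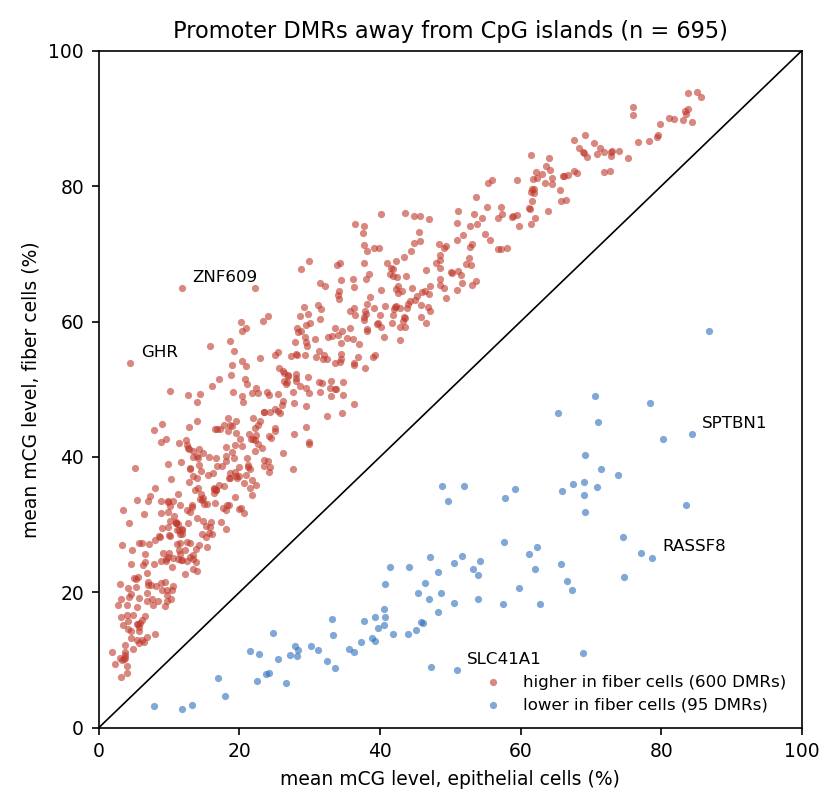
Mean mCG level of each of the 695 promoter DMRs away from CpG islands in epithelial cells (x axis, %) and fiber cells (y axis, %). Each point is 1 DMR, the line marks equal levels, and 600 points lie above it and 95 below it.

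The median change was 17.9 percentage points, between 15.8 at island or shore promoters and 19.9 over all DMRs. Gains had a median of 19.0 percentage points (5th to 95th percentile 8.62 to 33.5) and losses a median of -25.8 (-48.0 to -10.5). A change of at least 20 percentage points in either direction was found in 337 members, or 48.5% (44.8 to 52.2), beside 59.5% of all DMRs and 33.2% (28.5 to 38.4) of island or shore promoter DMRs. Gains of that size made up 38.6% of members and 49.5% of all DMRs. Losses of that size made up 9.93% of members and 10.0% of all DMRs. The share of large losses thus lay next to that of the whole table. The share of large gains lay between those of island or shore promoter DMRs (26.6%) and of all DMRs.

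The name of the group was checked against the number of CG sites the table lists per 100 bp. The median was 11.7 in members, 14.4 in island or shore promoter DMRs and 10.3 over all DMRs. Of the members, 226 (32.5%) were denser than the median of island or shore promoter DMRs. The name is thus true of the annotation, while a sizeable minority of members was denser than the median DMR of that comparison group. In that group 187 DMRs were annotated to an island and 159 to a shore only. Island DMRs were not set apart from shore DMRs in density. Median length was 224 bp in members and 214 bp at islands or shores.

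Direction and size of the change both moved with density among the members. In the tertile with the lowest density, 184 of 232 DMRs were gains (79.3%, 73.6 to 84.0). The middle tertile held 203 gains of 231 (87.9%, 83.0 to 91.5) and the densest tertile 213 of 232 (91.8%, 87.6 to 94.7). Over all DMRs divided at the same densities the shares were 85.0%, 87.5% and 88.1%. Changes of at least 20 percentage points made up 83.6%, 46.3% and 15.5% of the members in the same order, and 89.6%, 55.6% and 17.7% of all DMRs at the same densities. The fall of large changes with density was thus a feature of the whole table. Of the 95 losses among members, 48 lay in the sparsest tertile. The number of CG sites also enters the way DMRs were called and averaged, and its part in this pattern was not tested.

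**Figure D2:**
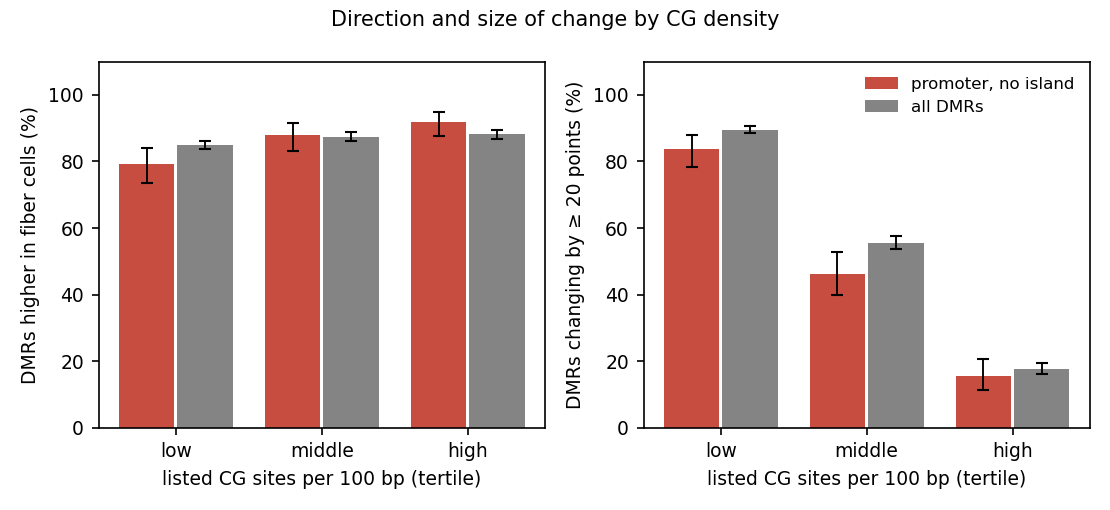
Share of DMRs higher in fiber cells (left, %) and share changing by at least 20 percentage points (right, %) in tertiles of CG site density, for the 695 promoter DMRs away from islands (red) and for all 7621 DMRs divided at the same densities (grey). Bars are shares and error bars 95% Wilson intervals over DMRs. Gains rise from 79.3% to 91.8% and large changes drop from 83.6% to 15.5% across the tertiles.

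A DMR in the promoter of a gene can also overlap a body. It can run across the start site, transcripts of a gene start at different places, and genes lie side by side. Only upstream sequence was covered by 298 members, the body of the same gene as well by 200, the body of another gene by 174 and both by 23. Gains made up 85.6% (81.1 to 89.1), 84.0% (78.3 to 88.4), 91.4% (86.3 to 94.7) and 78.3% (58.1 to 90.3) of these. Median levels were 25.5% and 40.4% in epithelial and fiber cells for DMRs only upstream, and 34.2% and 53.2% for those inside another gene. The 23 DMRs that overlapped the body of both genes had lower medians, 24.1% and 33.9%. The start site or 5′ UTR of the gene itself was reached by 97 members, with 84 gains (86.6%), again the background share.

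The largest gain lay in the promoter of ZNF609, which encodes a zinc finger protein, at chr10:1648231-1648343. Over its 10 listed CG sites the level rose by 53.1 percentage points, from 11.9% in epithelial cells to 64.9%. GHR, the growth hormone receptor, followed with 4.52% and 53.9% at chrZ:13427274-13427380. These DMRs went from nearly or mostly unmethylated to mostly methylated. EML4, a microtubule-associated protein, changed by 42.7 percentage points, KANK1, a regulator of actin at adhesions, by 40.5, and KMT2C, a histone H3 lysine 4 methyltransferase, by 39.8. The rest of the 10 largest gains, from 36.4 to 38.3 percentage points, were at TNFRSF1A (a receptor for tumor necrosis factor), DDR1 (a collagen receptor kinase), TP63 (a p53 relative that maintains stratified epithelia) and the microRNAs gga-mir-1755 and gga-mir-6570. Only upstream sequence was covered by the DMRs of GHR, KANK1 and KMT2C. Those of ZNF609 and the microRNAs also overlapped the body of another gene. Those of EML4, TNFRSF1A, DDR1 and TP63 also overlapped the body of the same gene. The gene bodies of ZNF609, EML4, DDR1 and TP63 held other DMRs, which averaged gains of 20.1 (13 DMRs), 33.0 (6), 20.5 (3) and 18.6 (2) percentage points. The promoter DMRs were picked for their size, so these body means are read for direction only and not set against the promoters in size.

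The largest loss among promoters with a symbol was at RASSF8, a Ras association domain protein, at chr1:67532593-67532728. Its level fell by 53.5 percentage points, from 78.7% to 25.1%. WARS2, the mitochondrial tryptophanyl-tRNA synthetase, fell by 52.5, FBXO30, an F-box protein, by 50.7, and NCF1, a cytosolic subunit of the phagocyte NADPH oxidase, by 46.9. Each of these was highly methylated in epithelial cells, between 67.3% and 83.5%, and each held exactly 10 listed CG sites, the smallest number admitted to the ranking. SLC41A1, a magnesium transporter, reached 8.52% from 50.9%. The others, PDXDC1, SPTBN1, KIAA1522, KIAA0922 and the methionine sulfoxide reductase MSRB3, fell by between 38.7 and 41.5 percentage points. The DMRs of SPTBN1 and KIAA1522 also overlapped the body of the same gene. That of SLC41A1 overlapped its own body and that of another gene. The rest of these losses covered only upstream sequence. Gene bodies that held other DMRs differed in direction. In SPTBN1 the other 4 body DMRs averaged -34.1 percentage points, whereas 3 in KIAA1522 averaged a gain of 15.3 and 4 in MSRB3 a gain of 7.13.

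**Figure D3:**
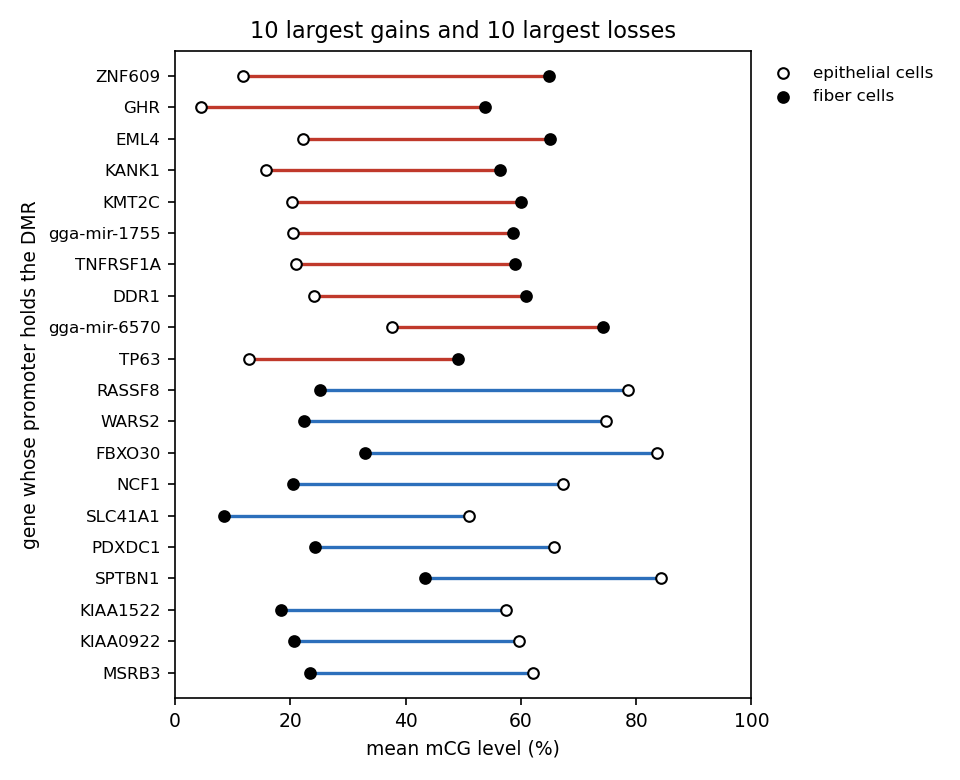
Mean mCG level (%) in epithelial cells (open circles) and fiber cells (filled circles) of the 10 largest gains (red lines) and 10 largest losses (blue lines) among promoter DMRs away from islands with at least 10 listed CG sites and a gene symbol. Gains end between 49.1% and 74.2% and losses between 8.52% and 43.3% in fiber cells.

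Members fell in the promoters of 655 genes, of which 443 had a symbol. Averaged over its members, the promoter gained in 565 genes (86.3%, 83.4 to 88.7) and lost in 90. With 2 or more members there were 69 genes, 60 with gains only, 3 with losses only and 6 with both. The 14 genes with 3 members held gains only. CRYAB, described below, was one of them. IL11RA gained 24.9, 21.7 and 26.1 percentage points. SCUBE3, a secreted and membrane-associated glycoprotein, gained 12.6, 23.1 and 16.1. DENND6B gained between 15.8 and 18.9, R3HCC1L between 9.96 and 18.7, and the noncoding gene mascRNA-menRNA between 10.2 and 21.1.

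Genes with promoter losses only were FBRSL1 (-51.2 and -17.7 percentage points), WNT7B and PDGFRA. The larger FBRSL1 loss lay in a DMR with fewer than 10 listed CG sites, so it was not in the ranking of losses above. PDGFRA, a receptor for platelet-derived growth factor, had -10.1 and -15.3 at neighbouring DMRs, from 21.5% to 11.4% and from 25.5% to 10.2%. Genes with both directions included CAMK2D, a calcium/calmodulin-dependent kinase, where a DMR that fell from 48.3% to 17.2% (chr4:56533079-56533302) lay beside one that rose from 15.3% to 28.2% (chr4:56533912-56534093). RFX4, a transcription factor of the RFX family, had 27.5 and -23.0, and RUFY3 had 9.82 and -15.8. In these 6 promoters a single average would hide opposite changes, and the mean for RFX4 was only 2.2 percentage points.

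Members within 10 kb of each other formed 98 neighbouring pairs, of which 91 (92.9%) had the same direction, beside 89.5% of 2986 such pairs over all DMRs. Neighbours often share a gene, and only the closest can share the smoothing, which spans 200 bp. The 695 DMRs are thus not independent. A total of 38 members lay in the promoters of 2 or more genes at once, 37 gains and 1 loss, beside 86.6% gains over all DMRs. Of the 38, 5 were gains at immunoglobulin genes of chromosome 31, described below, each in the promoters of 3 genes. The loss, from 40.6% to 15.1%, lay at the promoters of LAMB4, a laminin beta chain, and ERGIC2.

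For 140 genes the change in promoter members could be set beside the mean of other DMRs in the gene body, leaving out DMRs that overlapped both. Promoter and body had the same direction in 120 (85.7%, 79.0 to 90.6), with both gaining in 114 and both losing in 6. Since the promoter gained in 122 and the body in 126 of these genes, the separate shares of gains alone would give 79.7% agreement, a value inside the interval. With gains so common on both sides, the agreement share says little about a link between promoter and body, which was not tested. The promoter gained while the body lost in 8, and the promoter lost while the body gained in 12. Where the promoter gained, the body gained in 93.4% of 122 genes. Where the promoter lost, it gained in 66.7% of 18 genes. The body gained in 90.0% of all 140 genes. Across the 140 genes Pearson's r was 0.235 and Spearman's rank coefficient 0.208, given as a description over genes that share libraries and are no replicates.

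Among the opposite pairs, MSRB3, ARHGAP31, a GTPase-activating protein, LDB1, a LIM domain binding cofactor, and PDGFRA lost in the promoter and gained in the body. A body with several DMRs enters by the sign of its mean, which can be small and can hide opposite changes. The mean was 7.13 percentage points over 4 DMRs in MSRB3 and 0.177 over 4 in ELL, another such gene. At ARHGAP31 the promoter DMR fell from 45.8% to 15.7% while the body DMR rose by 29.7 percentage points. FKBP8 and ATXN7 showed the reverse, with promoter gains of 14.4 and 21.2 and body losses of -18.8 and -21.4 percentage points. A DMR can enter more than 1 gene. The body DMR of FKBP8 is also the promoter DMR of ELL, so it counts for both of these opposite genes. HSF4 and WNT7B were among the 6 genes that lost in both. Genes with a single DMR on each side make up most of these examples.

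**Figure D4:**
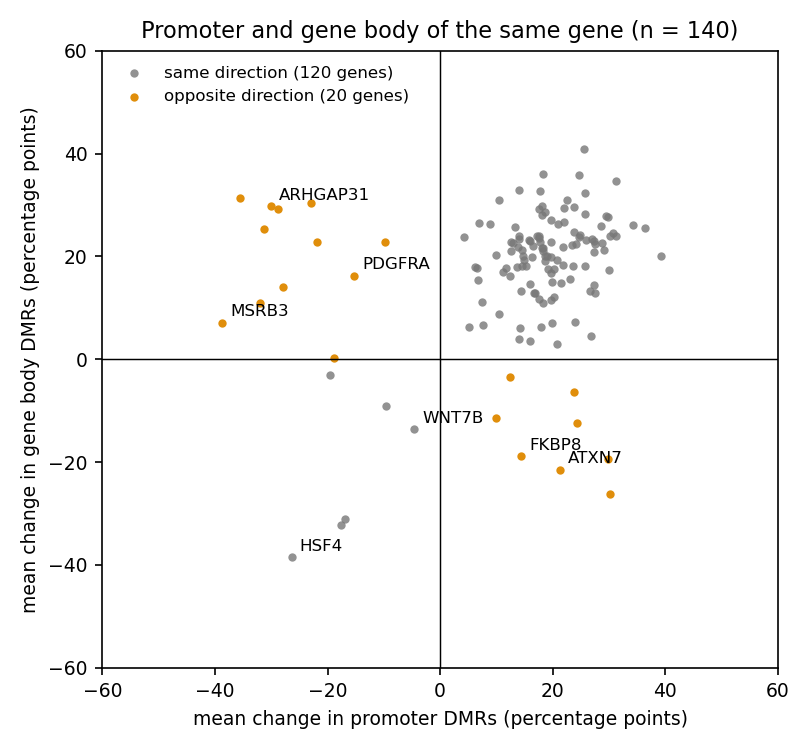
Mean change (fiber minus epithelial cells, percentage points) in promoter DMRs away from islands (x axis) and in other DMRs of the gene body (y axis) for 140 genes. Grey points are the 120 genes with the same direction and orange points the 20 with opposite directions, 12 of them with a losing promoter and a gaining body.

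Genes were then grouped by function with 14 lists, on which 74 members fell, 61 gains and 13 losses, beside 86.6% gains over all DMRs. CRYAB, a small heat shock protein and lens crystallin, was the 1 crystallin gene of the 9 with any DMR that had a promoter DMR away from an island. It had 3, all on chromosome 24 (6238762-6239230, 6239284-6239439 and 6240460-6240770). Their levels were 37.8%, 20.3% and 34.2% in epithelial cells and 61.5%, 54.1% and 64.6% in fiber cells. The first and the second lie in the body of HSPB2, the neighbouring small heat shock protein gene, and the last in the promoters of both genes. A DMR in the 3′ UTR of CRYAB went from 11.0% to 33.6%, so the 4 DMRs around this pair of genes were gains.

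Lens membrane and cytoskeleton genes gave 4 members. SPTBN1 was the loss, at chr3:2787296-2787699, in a DMR also annotated to a repeat. DNASE2B, the acid DNase that degrades fiber cell nuclei in mice, went from 9.58% to 25.0%, and a pair of DMRs at TMOD4, a tropomodulin that caps actin filaments, gained 13.3 and 13.7 percentage points. Of lens transcription factors, 4 genes had a member. HSF4 lost (51.7% to 25.3%) and so did SOX1, needed for crystallin expression in mouse lens fibers (24.8% to 14.0%). NFIB went from 8.62% to 28.3% and POU2F1 from 16.1% to 28.7%. With 4 DMRs, 2 gains and 2 losses, this list is too short to set against the 86.6% gains of all DMRs.

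Notch signalling runs from ligands on one cell to receptors on the next, and its nuclear output includes HES and HEY repressors. Of 16 genes of this list with any DMR, 6 had members, and the same share over all genes with a DMR was not computed. The members were 8 DMRs, and the 8 were gains, beside 86.6% of all DMRs. The ligand JAG2 went from 36.9% to 54.7% in one DMR and from 5.75% to 14.4% in another. DTX4, a Deltex ubiquitin ligase, went from 6.89% to 22.9% and from 9.83% to 31.8%, and DTX2 gained 15.0 percentage points. Among the repressors, HES5 went from 53.7% to 78.3%, HEY1 from 9.69% to 20.4% and HEYL from 5.67% to 14.9%. The median change of 15.5 percentage points was below that of all DMRs. HES5 was the one of these 8 that was mostly methylated to begin with, and a DMR spanning its 3′ end rose by 35.9 percentage points. HEY1 and HEYL stayed mostly unmethylated in both cell types.

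Of the Wnt and hedgehog genes, the ligand WNT7B had 2 losses at low levels, from 11.8% to 2.85% and from 7.91% to 3.23%. Of its 7 further body DMRs, 6 were losses, the largest from 48.1% to 14.4%. The hedgehog coreceptor CDON went from 9.83% to 29.6% and WNT2B from 4.0% to 18.1%. In the FGF, BMP and TGF-beta list, BMP2 went from 25.8% to 46.6% and SPRY1, an inhibitor of FGF signalling, from 11.4% to 29.2%.

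Extracellular matrix and adhesion genes gave 7 gains and 1 loss with a median of 27.1 percentage points. Gains were at the collagen receptor DDR1 (24.1% to 60.8%), the procollagen protease ADAMTS3 (19.3% to 55.6%), COL3A1 (21.1% to 50.8%) and the laminin chain LAMA3 (5.41% to 33.7%), and the loss was that of LAMB4 described above. Chromatin genes gave 9 gains and 1 loss with a median of 20.2. KMT2C and TET2 (44.8% to 75.6%) gained most, the histone deacetylase HDAC1 gained 23.2 percentage points, and the loss was at TET1 (71.0% to 45.1%). In TET2 another DMR, in an exon, fell by 46.0 percentage points, so direction differed within that gene. BCOR, a corepressor, gained 16.7 and 15.2 in its promoter, while its 12 body DMRs held both directions. Both lists stayed near the background share of gains.

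**Figure D5:**
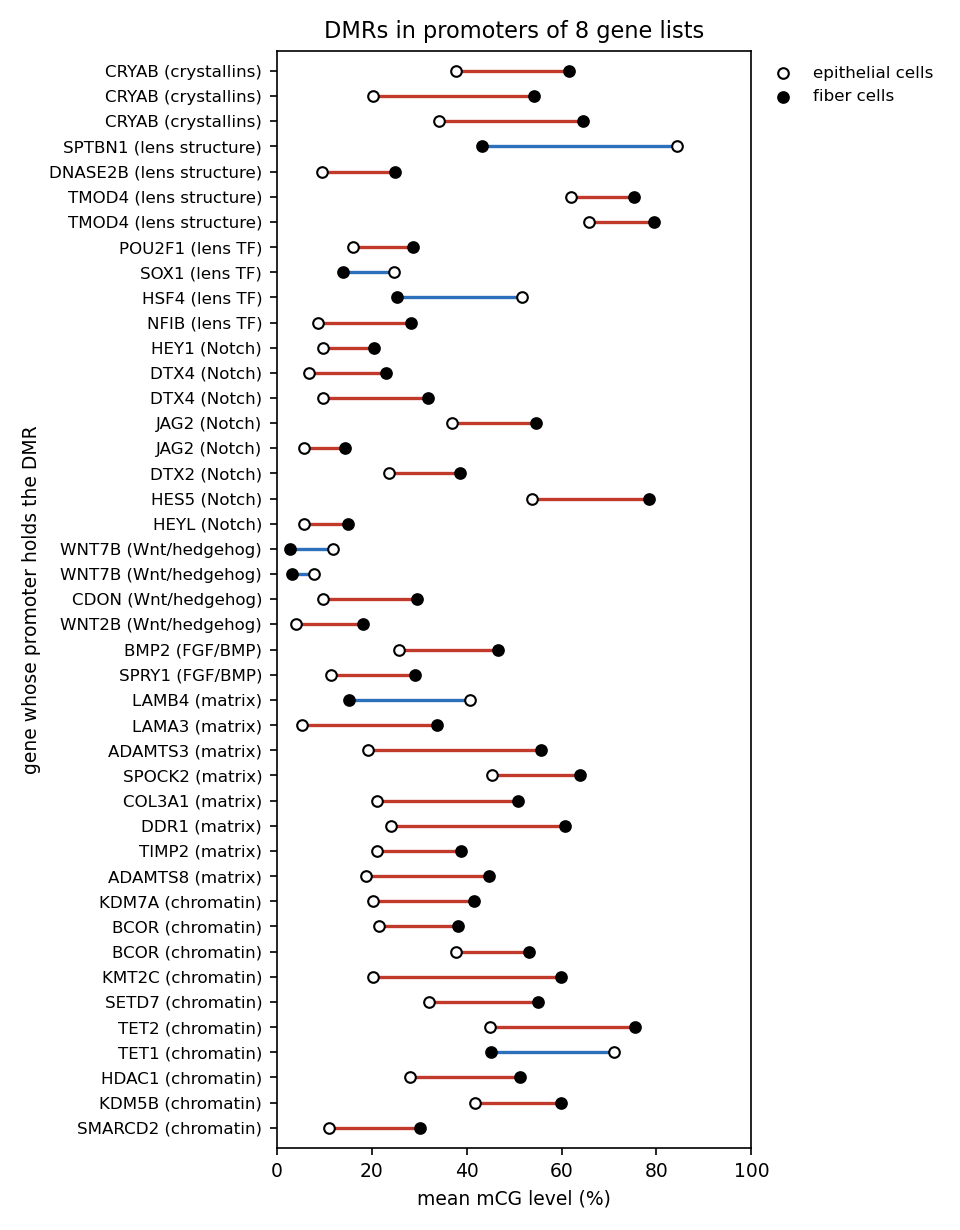
Mean mCG level (%) in epithelial cells (open circles) and fiber cells (filled circles) of promoter DMRs away from islands at genes of 8 functional lists. Each line is 1 DMR, red for gains and blue for losses. The 8 Notch pathway DMRs and the 3 at CRYAB are gains, and losses are at SPTBN1, SOX1, HSF4, WNT7B, LAMB4 and TET1.

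Transporters and channels were the list with the most members, 14 gains and 3 losses with a median of 19.9 percentage points, close to that of all DMRs. The losses were large. SLC41A1 was the largest, SLC22A18, an organic cation transporter, fell from 80.3% to 42.6%, and SLC25A17, a peroxisomal carrier, from 69.1% to 36.4%. The largest gains were at the cation channel TRPM1 (7.87% to 43.9%), the peptide transporter SLC15A2 (31.5% to 65.7%) and the amino acid transporter SLC7A2 (39.2% to 70.9%). Cytoskeleton genes gave 5 gains and 2 losses, the losses being SPTBN1 and the actin crosslinker ACTN1 (57.8% to 33.9%). Hypoxia and glycolysis genes gave 3 gains, at LDHA (14.2% to 41.1%), HKDC1 and VEGFA. The cell cycle kinase CDK6 fell from 33.2% to 16.1%, and FOXO1, a forkhead factor on the autophagy list, went from 28.3% to 59.0%. Homeobox, SOX and forkhead factors gave 6 gains and 2 losses. The losses were SOX1 and POU2AF1, which went from 48.7% to 20.0% and which encodes a coactivator of POU factors and carries no homeobox itself.

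Promoters of microRNA genes held 42 members, 39 gains and 3 losses (92.9% gains, 81.0 to 97.5, beside 86.6% of all DMRs). Their median levels, 38.4% in epithelial cells and 61.4% in fiber cells, were above the 26.2% and 42.0% of the 528 members in promoters of protein-coding genes. Changes of at least 20 percentage points made up 66.7% of them (51.6 to 79.0), an interval that includes the 59.5% of all DMRs. A DMR at chr10:6137924-6139171 covered the promoters of gga-mir-204-2 and gga-mir-1574 and went from 34.0% to 68.4%. miR-204 is a microRNA of the lens and retinal pigment epithelium, and whether the gga-mir-204-2 copy is expressed there was not examined. The DMR lies inside TRPM1, whose promoter DMR and 4 other body DMRs gained between 22.6 and 37.6 percentage points. The losses were at gga-mir-133a-1 (54.0% to 22.5%), gga-mir-1552 (39.8% to 14.7%) and gga-mir-365-2 (59.2% to 35.3%). gga-mir-146a, whose mammalian counterpart restrains NF-kappaB signalling, went from 7.11% to 27.2%. A promoter here is the annotated window upstream of the microRNA gene, and where its transcript starts was not examined. Of the 42, 32 lay inside another gene. Among members that overlapped only the body of another gene, the median fiber cell level was 62.0% for 29 at microRNA promoters and 49.0% for 119 at promoters of protein-coding genes. The part of position in the higher levels was not tested.

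Promoters of long noncoding RNA genes held 114 members, 95 gains (83.3%, 75.4 to 89.1) and 19 losses, with a median change of 20.5 percentage points. Among chromosomes with at least 50 members, gains made up 79.3% of 111 on chromosome 1, 80.8% of 52 on chromosome 2, 81.9% of 72 on chromosome 4 and 89.1% of 64 on chromosome 5. On chromosome 15, 4 of 9 were gains (interval 18.9 to 73.3), beside 77.5% of the 187 DMRs of that chromosome, which lies outside that interval. It was singled out among the chromosomes after its value was seen. Of its 5 losses, 2 lay in the promoter of FBRSL1, so the 9 DMRs are not independent as the interval assumes. The 187 also include them. The shares over all DMRs of chromosomes 1, 2, 4 and 5 were 83.6%, 83.8%, 85.7% and 86.9%, each inside the interval of the members on that chromosome.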

How the data were processed

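DNA of microdissected lens epithelial and fiber cells was bisulfite treated and sequenced by the authors, who trimmed reads with Trimmomatic after CASAVA base calling and aligned them to galGal6 with Bismark, per the submitters' notes and the study's methods (versions not given in the sources used here). They called DMRs from the 3 replicates of each cell type with DSS, a beta-binomial model with smoothing over 200 bp, a p threshold of 1e-05, at least 50 bp and 3 sites, merging within 100 bp and no minimum difference. The deposited table gives each mean mCG level as a fraction per cell type, pooled by the authors over replicates, with the position, length, number of CG sites and annotations. What a listed CG site counts, per strand or per pair, is not stated, so density is used only between DMRs of this table. Columns with the authors' own difference and area statistic were not used. Smoothing and averaging make neighbouring sites alike, and selection by p leaves only called regions.

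Of 13180 lines, 551 exact repeats were dropped and the other 12629 joined to 7621 DMRs. Fractions were turned into percent, and the change is fiber minus epithelial level in percentage points. Gene symbols and types are those of the table. The gene table at hand describes another assembly and holds 0 of the 655 promoter gene identifiers, so it was not used. Shares have 95% Wilson intervals and the difference of shares a Newcombe interval, which cover the counting of DMRs only. No test was run over DMRs, which are not replicates.

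Genes are named by a rule: members of 14 functional lists (up to 5 per list with the largest change, with counts for all), the 10 largest gains and losses among 475 members with at least 10 listed CG sites and a gene symbol, genes with 3 or more promoter members or with both directions, and promoters shared with a list gene. Other names, such as genes with losses only, opposite promoter and body changes, microRNAs and genes with a listed site, were chosen after their values were seen. The members and lists were chosen with earlier results of these data known. Motif sites came from the study's supplementary site list as sequences and positions only, and 16433 bases shared by overlapping sites were compared, of which 0 differed. Alternatives were a minimum change of 20 percentage points, a minimum of 10 CG sites, protein-coding genes only, 1 DMR per 10 kb cluster, no repeats, no overlap with a gene, and DMRs shared by promoter and body kept. Some genes and motifs that the rule would name are not reported here. The calculations were tested on simulated data in which DMRs were independent, so the effect of alike neighbours on the intervals was not tested. Python 3.11.15, NumPy 2.4.6, pandas 2.3.3, SciPy 1.17.1 and matplotlib 3.10.9 were used.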

Additional observations from a re-analysis of the deposited data

How the results depend on the processing

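Of 33 recomputed values, 27 stayed inside the counting interval of the reported value. Most alternatives kept a part of the same DMRs, such as the 668 of 695 without repeats. Staying inside was therefore likely beforehand and is no independent check. Requiring a change of at least 20 percentage points, which by construction removes small changes, kept 337 DMRs. It gave 79.5% gains, a median change of 23.6 percentage points, a median epithelial level of 31.4% and 79.2% of 327 genes gaining. Changes of that size were gains in 3773 of 4538 over all DMRs and in 92 of 115 at island or shore promoters. The share of gains was thus lower at this size in the whole table too. With protein-coding genes only, the median change was 17.1 percentage points, and the cause was not tested. Keeping DMRs that overlap promoter and body of the same gene, which by construction adds the same value to both sides, raised the share of genes with the same direction to 90.8% of 338. The difference in the share of gains from island or shore promoters was 1.92 percentage points when DMRs overlapping any gene were left out, against -0.663 as reported, and both intervals include 0. A minimum of 10 listed CG sites removed 1 DMR.

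No paired analysis was possible because the table holds 1 mean per cell type and no replicate columns. For the same reason no replicate was left out, and the precision of a level, which depends on depth, is unknown.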

Other observations

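Some members lie in parts of the genome the lists do not reach. On chromosome 31, 5 DMRs lay in promoters annotated to 3 immunoglobulin variable (IG_V) genes each, genes that encode parts of antibodies. Their epithelial levels ran from 66.7% to 79.9% and their fiber levels from 81.7% to 89.2%, so they were densely methylated in both cell types, and the 5 were gains of 9.4 to 15.0 percentage points. Genes of this family are near-identical copies, and how reads were divided among them is not stated. On the W chromosome, which in birds is found in females, 4 members were gains, from 4.0% to 9.2%, from 42.9% to 57.3%, from 71.3% to 85.7% and from 19.1% to 49.5%. The share of female embryos in the pools is not known.

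The small nucleolar RNA gene SNORA5 was the 1 gene of its type with a member, and its level fell by 35.5 percentage points, from 61.2% to 25.7%. The 4 pairs of a member and a pseudogene promoter were gains with a median of 21.0 percentage points. Repeats were annotated in 27 members, 22 gains and 5 losses (81.5% gains, 63.3 to 91.8), an interval that includes the share over all DMRs. The largest gain among them was the DMR at ADAMTS3 and the largest loss that at SPTBN1. The losses at ARHGAP31 and SLC25A17 named above were also among them.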
